A study of Drosophila melanogaster with 72 samples.

Results

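Brains of *Drosophila melanogaster* that had been shaken for 12 h were compared with brains shaken for 3 h. Both groups came from iso31, a white-eyed isogenic laboratory strain. A vortexer vibrated the flies for 2 s in every 20 s, at random moments, until dissection at zeitgeber time 0 (ZT0), the hour of lights on. The shorter treatment therefore covered the last 3 h before ZT0 and the longer one the 12 h before it. The contrast takes 6 of the 72 libraries of the series, 3 for each duration, each made from a pool of 15 whole brains. The age and sex of the flies and the temperature during shaking are not given in the sources used here. Because both groups were shaken, dissected at ZT0 and labelled as the same experiment, the comparison asks what differed between short and long shaking rather than what shaking did. Libraries of flies shaken for 6 h (3) and of undisturbed iso31 flies dissected at ZT0 (3, labelled as circadian profiling) are given beside them as levels. The labels describe separate biological replicates, which carry no link between the durations.

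Sleep in flies, as in mammals, is under homeostatic control: waking that replaces sleep is followed by longer and deeper sleep. Work on sleep loss in flies has often followed chaperones, metabolic enzymes, immune peptides and synaptic proteins, whose transcripts or proteins can change with waking. A vortexer also delivers mechanical stimulation for as long as it runs, so hours of waking and hours of shaking cannot be told apart here.

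Total estimated counts were 6211265 to 9767106 per library after 3 h and 6076259 to 7883788 after 12 h. No difference was detectable between the groups in mean total (exact permutation test, two-sided, p = 0.4) or in genes with a count (10610 to 11133 after 3 h, 10430 to 10679 after 12 h, exact permutation test p = 0.4), and 0.1 is the smallest p that 3 against 3 libraries allow. Neuronal markers were abundant in every library, with 6 of 6 counted in each and a summed level of 2900 to 3615 TPM over both groups. (TPM are abundances corrected for transcript length and library size.) Glial markers summed to 3441 to 4069 TPM, with 10 of 10 counted in each library. One library stood apart. Replicate 2 of the 3 h group had a summed level of the 12 photoreceptor markers of 7525 TPM, against 801 and 1669 TPM in the other 3 h replicates and 363 to 1349 TPM after 12 h. Its 12 muscle markers summed to 503 TPM, against 52.6 and 85.6 TPM in the other 3 h replicates and 26.6 to 95.3 TPM after 12 h. All 12 photoreceptor markers had a count in all 6 libraries, and 1 muscle marker, TpnC41C, was at 0 in all of them. Fat body markers, mostly yolk protein transcripts, summed to 240, 2306 and 1575 TPM in 3 h replicates 1 to 3 and to 231, 177 and 1007 TPM in 12 h replicates 1 to 3. The 6 hemocyte markers summed to 109 to 119 TPM after 3 h and 91.6 to 117 TPM after 12 h. None of the marker genes was called. At an unadjusted p under 0.05, 4.11% of all genes tested were higher after 12 h and 2.87% lower. At that level fne was higher among 6 neuronal markers tested (list median log2 0.06) and repo lower among 10 glial ones (-0.13). Rh4 was lower among 12 photoreceptor markers (-2.11) and srp among 5 hemocyte markers (-0.54), and none of 5 fat body (-1.62) and 10 muscle markers (-2.46) reached it. The part of these cell types in the results below was tested only by leaving libraries out. In such bulk samples, fewer cells of a type and less RNA per cell cannot be told apart.

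**Figure D1:**
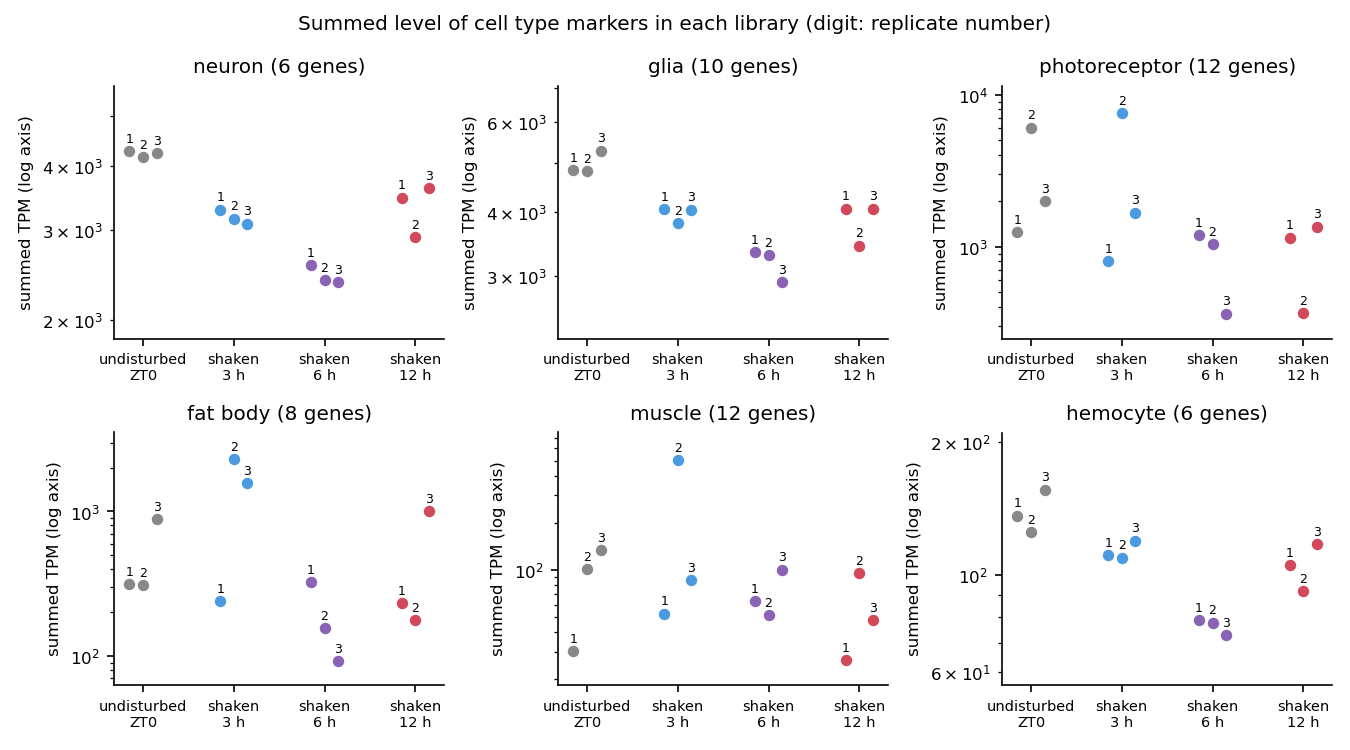
Summed TPM (log axis) of the markers of 6 cell types in each library of undisturbed ZT0 brains and of brains shaken for 3, 6 and 12 h; the digit at each point is the replicate number. Replicate 2 after 3 h of shaking carries the highest photoreceptor sum (7525 TPM), fat body sum (2306 TPM) and muscle sum (503 TPM) of the 12 libraries shown.

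No gene passed the threshold between 12 h and 3 h of shaking. With edgeR's quasi-likelihood test, 0 of 8705 genes (0%) reached an adjusted p of 0.05, and the smallest adjusted p was 0.212, that of Dgp-1. At an unadjusted p under 0.05 there were 608 genes, of which 358 (4.11% of those tested) were higher after 12 h and 250 (2.87%) lower. In 602 genes (6.92%) all 3 libraries after 12 h lay above all 3 libraries after 3 h, and in 424 genes (4.87%) all lay below. DESeq2 called 3 genes, Dgp-1, Ldh and mei-P26, and limma on log2 TPM called Dgp-1 alone. The log2 changes, 12 h minus 3 h, were centred close to 0, with a median of 0.005 and quartiles of -0.10 and 0.09, and the median standard error of a gene was 0.117. The estimates were precise enough to bound most genes: the 95% interval of the change lay within 1.5-fold in either direction for 6349 genes (72.9%) and within 2-fold for 7530 genes (86.5%). For these genes a larger difference between the durations lies outside the interval. For the others the interval reaches past the bound. In some of them, such as Dgp-1 and Ldh, it lay wholly beyond 1.5-fold, though neither passed the adjusted threshold in edgeR. The intervals are not adjusted for the number of genes tested.

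**Figure D2:**
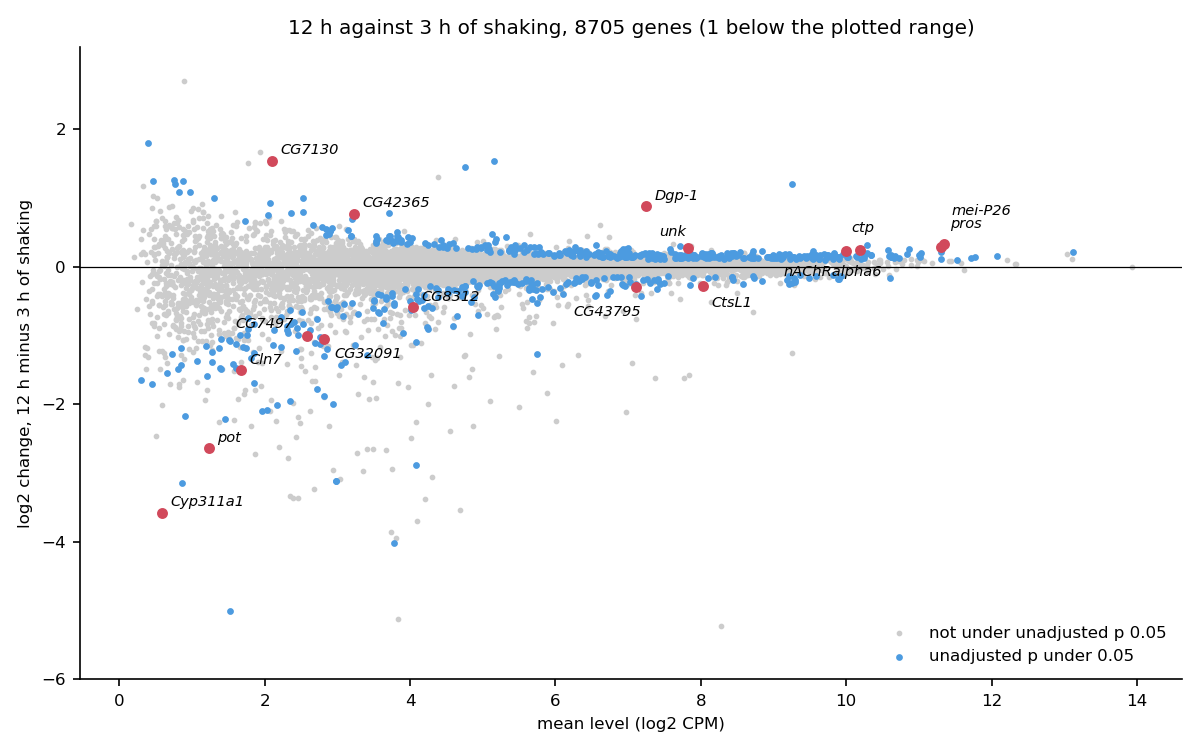
Log2 change between 12 h and 3 h of shaking against mean level (log2 CPM) for the 8705 genes tested, of which 1 lies below the plotted range. Blue points have an unadjusted p under 0.05, red points are the 8 genes with the smallest p in each direction; most points hug the zero line and most of the large negative changes are at low levels.

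The gene with the smallest p was Dgp-1, which encodes a predicted GTP-binding protein. Its level was 113, 93.4 and 99.5 CPM (counts scaled for library size with TMM factors) in the 3 h libraries and 160, 225 and 183 CPM in the 12 h libraries. All 3 libraries after 12 h lay above all 3 after 3 h, and the means were 102 ± 10.3 and 189 ± 32.7 CPM (SD, n = 3). The 6 h libraries, at 156, 172 and 164 CPM, lay above the 3 h libraries and overlapped with the 12 h libraries on this scale, though not in the deposited TPM (93.1 to 102 TPM after 6 h, 112 to 137 TPM after 12 h). Undisturbed ZT0 brains were at 88.4 to 94.4 CPM. The log2 change from 3 to 12 h was 0.89 (SE 0.118, 95% interval 0.63 to 1.15, edgeR adjusted p 0.212). The call depended on the fit. It passed in 6 of 17 alternatives, with adjusted p from 4.6e-11 (DESeq2) to 1 over all of them, among them the fits without 12 h replicate 1 (log2 0.996, edgeR adjusted p 0.00697) and without 12 h replicate 2 (0.75, adjusted p 0.0106). Its log2 change stayed between 0.687 and 0.996 under all 17. From 3 to 6 h the log2 change was 0.68 (edgeR adjusted p 0.00668) and from 6 to 12 h it was 0.21 (adjusted p 0.304). These steps share libraries with the main contrast and are not separate evidence for it.

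Because no gene met the rule for naming, the 8 genes with the smallest unadjusted p in each direction are described, and none of the 16 passed the adjusted threshold in edgeR. CG7130, which encodes a J-domain protein of the Hsp40 co-chaperone type, was at 1.07, 2.37 and 1.59 CPM after 3 h and 4, 5.57 and 5.41 CPM after 12 h. Its log2 change was 1.55 (SE 0.33, edgeR adjusted p 0.675), on estimated counts of only 9 to 42 per library. The 6 h libraries were at 4.74, 6.23 and 6.17 CPM and undisturbed ZT0 brains at 1.76 to 2.55 CPM, so that 6 h and 12 h overlapped, as did 3 h and undisturbed brains. From 3 to 6 h CG7130 rose by log2 1.74 (edgeR adjusted p 0.00529). CG42365 showed a like order of levels, at 6.04, 4.95 and 5.41 CPM after 3 h and 9.54, 8.44 and 10 CPM after 12 h (log2 0.78, SE 0.194, edgeR adjusted p 0.675), with 10.7 to 15.9 CPM after 6 h.

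The other genes with the smallest p among the higher ones were abundant and differed by little. The transcript of ctp, the dynein light chain, was at 1103, 1069 and 1004 CPM after 3 h and 1248, 1258 and 1242 CPM after 12 h, log2 0.24 (SE 0.0532, edgeR adjusted p 0.675). The RNA-binding zinc finger gene unk (unkempt) was at 209, 208 and 191 CPM after 3 h and 239, 238 and 259 CPM after 12 h, log2 0.27. mei-P26, a TRIM-NHL protein best known from the germline, was at 2512, 2363 and 2109 CPM after 3 h and 2761, 2926 and 3090 CPM after 12 h, log2 0.33. The homeodomain factor gene pros (prospero) was at 2466, 2331 and 2367 CPM after 3 h and 2613, 2985 and 3167 CPM after 12 h, log2 0.29. The nicotinic acetylcholine receptor subunit gene nAChRalpha6 was at 1024, 929 and 893 CPM after 3 h and 1055, 1117 and 1162 CPM after 12 h, log2 0.23. In each of these 5 genes the 3 h and 12 h libraries did not overlap, a criterion by which 6.92% of all genes tested were higher. The adjusted p was 0.675 in edgeR for each of them, and the 12 h levels of ctp, mei-P26, pros and nAChRalpha6 overlapped with those of undisturbed ZT0 brains.

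**Figure D3:**
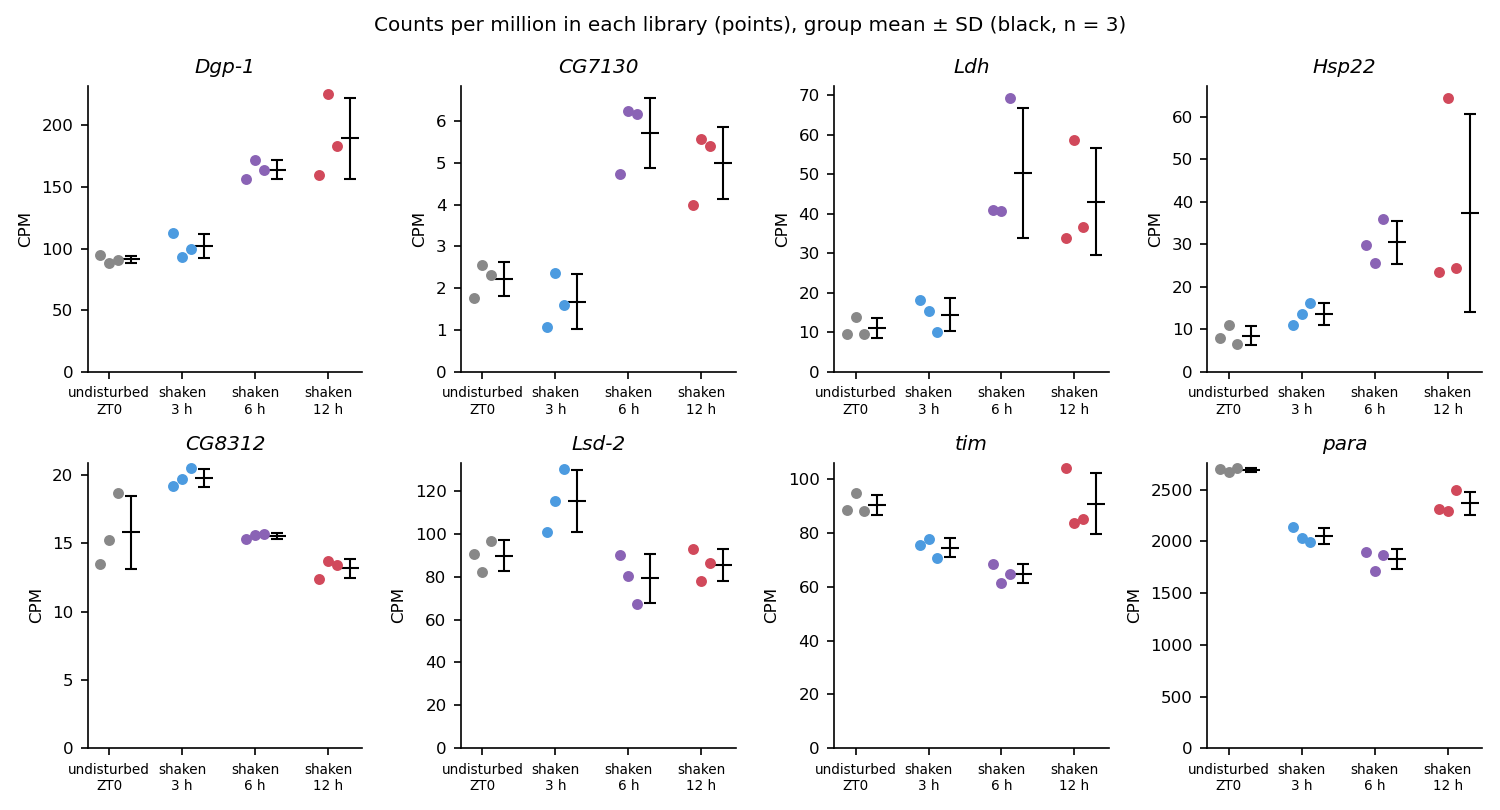
CPM of 8 genes in each library of undisturbed ZT0 brains and of brains shaken for 3, 6 and 12 h, with the group mean ± SD (n = 3) in black. Dgp-1, CG7130, Ldh and Hsp22 are higher in all 12 h libraries than in all 3 h libraries and overlap between 6 h and 12 h, CG8312 and Lsd-2 are lower after 12 h than after 3 h, and tim and para lie lower after 6 h than after either other duration.

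The 8 lower genes with the smallest p were CtsL1, Cln7, CG8312, CG43795, CG7497, CG32091, pot and Cyp311a1. CtsL1, which encodes the lysosomal protease cathepsin L and is listed under its older symbol Cp1, was at 257, 281 and 307 CPM after 3 h and 226, 228 and 243 CPM after 12 h. Its log2 change was -0.28 (SE 0.0714, edgeR adjusted p 0.675), and undisturbed ZT0 brains were at 187 to 226 CPM. Cln7, homologous to a human gene of neuronal ceroid lipofuscinosis and encoding a lysosomal membrane protein, was at 3.91, 5.98 and 4.46 CPM after 3 h and 2.32, 0.844 and 1.8 CPM after 12 h (log2 -1.498, SE 0.393). CG8312 had the smallest p of the lower genes: 19.2, 19.7 and 20.5 CPM after 3 h, 15.3 to 15.7 CPM after 6 h and 12.4, 13.7 and 13.4 CPM after 12 h (log2 -0.59, SE 0.121, edgeR adjusted p 0.675). The 3 durations did not overlap in this gene, and undisturbed ZT0 brains, at 13.5 to 18.7 CPM, lay below the 3 h libraries. CG43795 was at 159, 173 and 162 CPM after 3 h and 144, 117 and 144 CPM after 12 h, log2 -0.29. CG7497 went from a mean of 7.72 ± 2.12 to 3.82 ± 0.591 CPM and CG32091 from 10.4 ± 3.61 to 4.93 ± 1.31 CPM (SD, n = 3). The remaining pair, pot (papillote, an epidermal zona pellucida domain protein) and the cytochrome P450 Cyp311a1, had large fitted changes of -2.64 and -3.58 on low counts. The pot transcript was at 1.54, 7.63 and 2.23 CPM after 3 h and 0.903, 0.675 and 0.258 CPM after 12 h, and Cyp311a1 at 0.71, 4.23 and 2.23 CPM after 3 h and 0, 0.169 and 0.386 CPM after 12 h. In both, the highest value was that of 3 h replicate 2, the library rich in photoreceptor and muscle transcripts. Without that library and 12 h replicate 2, which held the most muscle transcripts of its group, the changes of pot and Cyp311a1 were -1.65 and -2.77.

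The same library held the highest 3 h level of most genes with large negative changes. Of the 217 genes lower by more than 2-fold after 12 h, 191 had their highest 3 h level, in TPM, in replicate 2, while 19 genes were higher by more than 2-fold. The largest was CG34220, at 3460 CPM in that library and at 0.237 to 1.69 CPM in the other 5 libraries. The rhodopsin gene ninaE was at 2620 CPM in it, at 6.75 and 55.9 CPM in the other 3 h libraries and at 1.01 to 43.1 CPM after 12 h. The chitinase gene Cht8 was at 108 CPM in it and at 0.355 to 2.02 CPM elsewhere. Without this library and 12 h replicate 2, 104 genes were lower and 38 higher by more than 2-fold. The share of all genes tested with their highest 3 h level in replicate 2 was not counted.

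Metabolic genes were examined next, by role, and the genes singled out below were chosen after their values were seen. Among 15 glycolysis and lactate genes, none was called and the median log2 change was -0.09 (0.005 over all genes tested). At an unadjusted p under 0.05, 1 was higher and 2 were lower (4.11% and 2.87% of all genes). The higher one was Ldh, lactate dehydrogenase, listed as ImpL3. It was at 18.2, 15.3 and 10 CPM after 3 h and 33.8, 58.7 and 36.7 CPM after 12 h, and the groups did not overlap. Its log2 change was 1.54 (SE 0.347, edgeR adjusted p 0.675), DESeq2 called it (log2 1.55, adjusted p 9.71e-06), and the log2 change lay between 1.26 and 1.73 in 17 alternatives. After 6 h it was at 40.9, 40.6 and 69.3 CPM (log2 against 3 h 1.76, edgeR adjusted p 0.0227) and in undisturbed ZT0 brains at 9.53 to 14 CPM. Gapdh1, an enzyme earlier in the pathway, was at 375, 369 and 413 CPM after 3 h and 365, 364 and 328 CPM after 12 h (log2 -0.13). The gluconeogenic enzyme genes were lower in fit: fbp by log2 -1.20, at 5.68, 15.9 and 8.28 CPM after 3 h and 3.87, 3.04 and 6.05 CPM after 12 h, and Pepck by -3.12, at 3.32, 30.8 and 16.2 CPM and 1.29, 3.37 and 1.29 CPM. In both genes the groups overlapped and the highest value was in 3 h replicate 2, and without that library and 12 h replicate 2 the log2 change of fbp was -0.48 and that of Pepck -2.88.

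No lipid or insulin gene was called. Of 18 lipid synthesis and storage genes, 14 had a negative and 4 a positive sign (4236 and 4469 of all 8705 genes). At an unadjusted p under 0.05, 1 was higher and 2 were lower (4.11% and 2.87% of all genes). The list median was log2 -0.14, and -0.003 without 3 h and 12 h replicate 2. Lsd-2, a perilipin that coats lipid droplets, was at 101, 115 and 130 CPM after 3 h and 92.8, 77.9 and 86.1 CPM after 12 h, without overlap (log2 -0.42, SE 0.116, edgeR adjusted p 0.675). It was lower after 6 h as well, at 67 to 90 CPM (log2 against 3 h -0.53, edgeR adjusted p 0.0159). The lipase gene bmm (brummer), which acts on the stores that perilipins cover, was at 43.7, 47.6 and 47.1 CPM after 3 h and 52.3, 53.1 and 52 CPM after 12 h (log2 0.19, SE 0.0782). Lsd-1, the other perilipin, was at 8.76 CPM in 3 h replicate 2 and at 1.18 to 2.87 CPM in the other 5 libraries (log2 -1.42, and -0.21 without 3 h and 12 h replicate 2). Among 11 insulin and fasting genes the receptor gene InR was at 120, 114 and 113 CPM after 3 h and 132, 129 and 159 CPM after 12 h (log2 0.28, SE 0.0752, edgeR adjusted p 0.675). Thor, the translation repressor 4E-BP, was at 20.5, 34.6 and 16.2 CPM after 3 h and 12.6, 13.7 and 12.1 CPM after 12 h (log2 -0.91, SE 0.306, edgeR adjusted p 0.675), and undisturbed ZT0 brains were lower still at 8.42 to 10 CPM. SLC5A11, a sodium-coupled solute transporter gene known from a hunger signal in the fly brain, was at 26.9, 35.1 and 36.5 CPM after 3 h and 26.3, 15.2 and 18.3 CPM after 12 h (log2 -0.71, SE 0.21).

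None of the stress genes was called. Of 16 heat shock genes, Hsp22, the mitochondrial small heat shock protein, was the only one at an unadjusted p under 0.05 (4.11% of all genes were higher at that level). It was at 11, 13.7 and 16.1 CPM after 3 h and 23.6, 64.4 and 24.5 CPM after 12 h, and no library of one group reached the range of the other (log2 1.46, SE 0.439, edgeR adjusted p 0.675). Without 12 h replicate 2, the highest, and 3 h replicate 2, its log2 change was 0.84 (edgeR adjusted p 0.566). Of the 16, 13 had a negative sign, and their log2 changes reached -2.64 in Hsp70Aa, one of the near-identical Hsp70 copies among which reads cannot be assigned with certainty, at 42.6 CPM in 3 h replicate 2 and 0 in 3 h replicate 1 and 12 h replicates 2 and 3. The list median was -0.16, but it ran from -0.53 without 12 h replicate 2 to 0.04 without 12 h replicate 3. None of 15 endoplasmic reticulum stress genes reached an unadjusted p of 0.05. Hsc70-3, the chaperone BiP, was at 268, 278 and 268 CPM after 3 h and 278, 254 and 272 CPM after 12 h, and the 95% interval of its log2 change ran from -0.15 to 0.12. Of 19 antioxidant genes, 17 had a negative sign (4236 of all 8705 genes did), and the median log2 change of -0.13 was -0.07 without 3 h replicate 3 and -0.09 without 12 h replicate 3. Catalase (Cat, log2 -0.33), malic enzyme (Men, -0.19) and GstS1 (-0.34) were lower at an unadjusted p under 0.05, as were 2.87% of all genes. Cat was at 46.9, 67 and 61.6 CPM after 3 h and 45.2 to 47.6 CPM after 12 h, with overlap. Only 3 of 16 antimicrobial peptide genes had counts enough to be tested, and none was called, nor was any of 14 genes of immune signalling. Without overlap, the peptide gene BaraA1 was higher (log2 1.31, edgeR unadjusted p 0.22), as were 6.92% of all genes. The gene pirk, an inhibitor of Imd signalling, was lower without overlap (log2 -0.79, edgeR unadjusted p 0.172), as were 4.87% of all genes.

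The neuronal lists held no called gene, and most of their members had small positive changes (4469 of all 8705 genes had a positive sign). The potassium and sodium channel list has 17 tested genes, among them the calcium channel genes Ca-alpha1T and Ca-alpha1D. Of these 17, 14 had a positive sign and 5 were higher without overlap (6.92% of all genes were), with a median log2 change of 0.09. At an unadjusted p under 0.05, 3 were higher (4.11% of all genes were), namely para, slo and Shal. The voltage-gated sodium channel gene para was at 2144, 2030 and 1991 CPM after 3 h and 2318, 2296 and 2498 CPM after 12 h (log2 0.21, SE 0.0527, edgeR adjusted p 0.675). The calcium-activated potassium channel gene slo was at 1130, 1294 and 1142 CPM after 3 h and 1307, 1318 and 1352 CPM after 12 h (log2 0.16). Of 19 sleep regulators, genes known from mutants with altered sleep, 15 had a positive sign and 4 were higher without overlap (6.92% of all genes were). At an unadjusted p under 0.05, 3 were higher (4.11% of all genes were). These were the potassium channel Sh (Shaker), at 1900, 1747 and 1666 CPM after 3 h and 1988, 1977 and 2115 CPM after 12 h, its beta subunit Hk (log2 0.12) and the GABA-A receptor Rdl (log2 0.16). Of 17 synaptic release genes 16 had a positive sign, and Sap47, a synapse-associated protein, was at 3517, 3331 and 3266 CPM after 3 h and 3741, 3727 and 3752 CPM after 12 h (log2 0.15, SE 0.04, edgeR adjusted p 0.675). Of 14 genes of transmitter synthesis and transport 1 was higher at an unadjusted p under 0.05 (4.11% of all genes were). This was Tbh, whose enzyme makes octopamine, a wake-promoting amine, and which was at 121, 112 and 127 CPM after 3 h and 136, 140 and 133 CPM after 12 h (log2 0.18).

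The libraries differed in how level depends on transcript length. Each gene's log2 level was taken relative to its mean over 12 libraries, and its length from the ratio of counts to TPM. The median of the shortest 10% of genes minus that of the longest 10% was 0.07, -0.06 and 0.15 in 3 h replicates 1 to 3 and -0.09, 0.30 and -0.19 in 12 h replicates 1 to 3. It was 0.46 to 0.63 after 6 h and -0.65 to -0.52 in undisturbed ZT0 brains. With a correction for length the log2 change of para was 0.15, that of Sh 0.15 and that of slo 0.12, and the median of the channel list was 0.05, from 0.09. The synaptic release median was 0.04, from 0.07, and the sleep regulator median 0.03, from 0.06. Levels of para after 6 h (1895, 1716 and 1873 CPM) lay below those after 3 h, and the rise from 6 to 12 h was log2 0.38 (edgeR adjusted p 0.000909). In undisturbed ZT0 brains para was at 2668 to 2706 CPM, above all shaken libraries.

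Most ribosomal protein genes had a negative sign, 61 of the 81 tested (4236 of all 8705 genes did). Of these 81, 16 were lower and 0 higher at an unadjusted p under 0.05 (2.87% and 4.11% of all genes), 16 were lower without overlap (4.87% of all genes), and none passed the adjusted threshold. The median log2 change was -0.07 and the members ran from -0.25 to 0.15. RpS5a was at 370, 436 and 389 CPM after 3 h and 329, 346 and 332 CPM after 12 h (log2 -0.25, SE 0.0676, edgeR adjusted p 0.675). RpL28 was at 344, 367 and 353 CPM after 3 h and 316, 318 and 302 CPM after 12 h (log2 -0.18). Relative to their mean over 12 libraries, the median ribosomal gene stood at log2 0.07, 0.07 and 0.15 in 3 h replicates 1 to 3 and at -0.04, 0.17 and -0.08 in 12 h replicates 1 to 3. Thus 12 h replicate 2 lay on the side of the 3 h group, and without it and 3 h replicate 2 the list median was -0.17. With a single library left out, the list median was -0.15 without 12 h replicate 2. It was -0.02 without 12 h replicate 3 and -0.04 without 3 h replicate 3. Of 32 proteasome genes 6 were lower without overlap and 2, Prosbeta5 and Prosbeta6, were lower at an unadjusted p under 0.05. Prosbeta6 was at 36.9, 38.8 and 38.8 CPM after 3 h and 35.2, 30 and 27.2 CPM after 12 h (log2 -0.31).

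**Figure D4:**
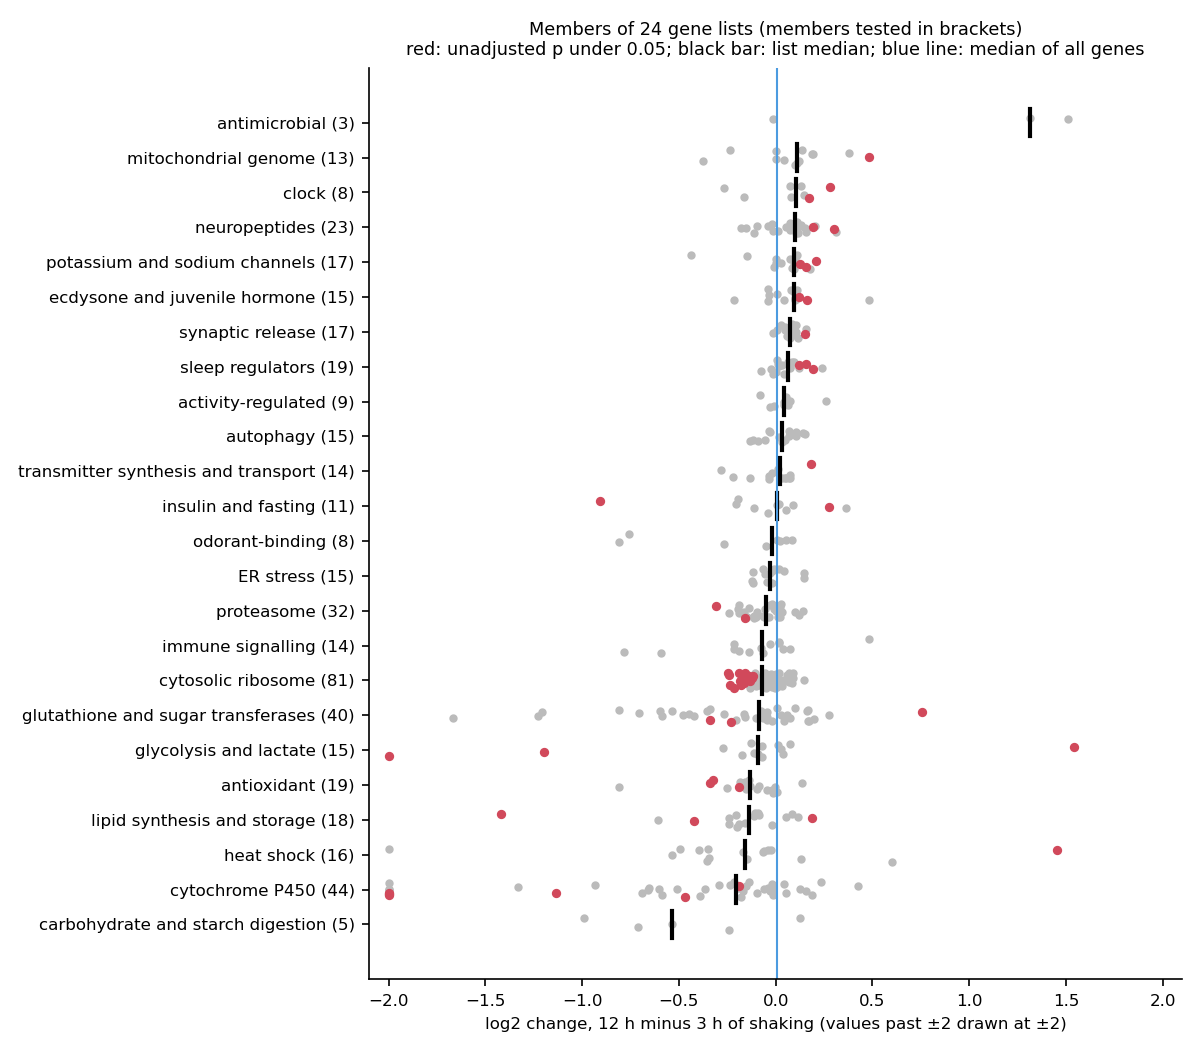
Log2 change between 12 h and 3 h of shaking of the tested members of 24 gene lists (grey, or red where the unadjusted p was under 0.05), with each list's median in black and the median of all genes tested in blue; 9 values past 2 in size are drawn at the edge. Medians of lists with over 5 members lie between -0.21 and 0.11.

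Both groups were dissected at the same clock time. All 8 clock genes on the list were tested and none was called. The period partner tim (timeless) was at 75.5, 77.7 and 70.5 CPM after 3 h and 104, 83.5 and 85 CPM after 12 h, without overlap (log2 0.28, SE 0.0885, edgeR adjusted p 0.675). It was at 61.5 to 68.6 CPM after 6 h and 88.1 to 94.7 CPM in undisturbed ZT0 brains, so that the 12 h libraries spanned the undisturbed ones and the 3 h libraries lay between 6 h and undisturbed. The activator Pdp1 was at 1285, 1185 and 1141 CPM after 3 h and 1292, 1384 and 1388 CPM after 12 h (log2 0.17, SE 0.0544). The remaining 6 overlapped between the groups. Their log2 changes were 0.13 for per, 0.15 for the repressor cwo, 0.08 for cyc, 0.07 for vri, -0.27 for the light sensor cry and -0.16 for Clk. The estimate of Clk was the least precise, with a 95% interval of -1.12 to 0.79, and 4.03, 13.7 and 10.2 CPM in the 3 h libraries alone.

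Activity-regulated genes, which neurons switch on after firing, gave no difference that these libraries could show: 0 of 9 reached an unadjusted p of 0.05 and 0 of 9 separated the groups. Hr38, the nuclear receptor of the Nr4a type that is used as an activity marker in insects, was at 32.1, 33.8 and 31.2 CPM after 3 h and 31.7, 31.7 and 52.8 CPM after 12 h (log2 0.26, 95% interval -0.52 to 1.04). The Egr homologue sr (stripe) was at 43.8, 46.1 and 56.8 CPM after 3 h and 46.2, 47.7 and 51.6 CPM after 12 h, above the 21.7 to 30.2 CPM of undisturbed ZT0 brains at both durations. None of 15 autophagy genes reached an unadjusted p of 0.05 either. Of 23 neuropeptide genes 2 were higher at an unadjusted p under 0.05 (4.11% of all genes were). These were Dh31, at 205, 192 and 206 CPM after 3 h and 222, 255 and 214 CPM after 12 h (log2 0.20), and Proc (proctolin), at 185, 160 and 202 CPM and 203, 263 and 207 CPM (log2 0.30). The highest value of both was in 12 h replicate 2, and without it and 3 h replicate 2 their log2 changes were 0.08 and 0.09 and the list median was -0.09, from 0.10 with all libraries.

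Of the ecdysone and juvenile hormone genes, 2 of 15, br (log2 0.12) and Met (log2 0.16), were higher at an unadjusted p under 0.05 (4.11% of all genes were), and these and Hr3 were higher without overlap (6.92% of all genes). The list median of 0.09 was 0.02 without 12 h replicate 3. The nuclear receptor gene Hr3 was at 41.6, 49.6 and 35.8 CPM after 3 h and 50.8, 78.1 and 49.8 CPM after 12 h (log2 0.48, SE 0.213). No detoxification gene was called. Of 44 cytochrome P450 genes 37 had a negative sign (4236 of the 8705 genes tested did), with a median log2 change of -0.21. At an unadjusted p under 0.05, 6 were lower and 0 higher (2.87% and 4.11% of all genes). The fat body markers had a negative median as well (-1.62), with their highest sums in 3 h replicates 2 and 3. The P450 median was -0.19 without 3 h replicate 2 and -0.21 without 3 h replicate 3. Beyond leaving libraries out, the part of fat body in the P450 values was not tested. Besides Cyp311a1, the 6 lower P450 genes included Cyp6v1, at 4.03, 6.7 and 5.57 CPM after 3 h and 2.19, 2.36 and 2.83 CPM after 12 h (log2 -1.14, SE 0.333), and Cyp4g1, at 9.83 CPM in 3 h replicate 1 and at most 0.516 CPM in the other 5 libraries. The other 3 were Cyp4e2, Cyp6a9 and Cyp9f2. Of 40 glutathione and sugar transferases Ugt35E2 was higher (log2 0.76) and GstS1 and GstO2 were lower at that level (4.11% and 2.87% of all genes). None of 5 carbohydrate digestion genes and 8 odorant-binding protein genes reached it.

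The mitochondrial genome took a similar share of the counts after both durations. It was 4.12%, 4.18% and 4.10% in 3 h replicates 1 to 3 and 3.81%, 5.80% and 3.18% in 12 h replicates 1 to 3, a difference of means of 0.13 percentage points (exact permutation test, two-sided, p = 1). The 12 h libraries spread widely around the narrow 3 h range, while the 6 h libraries had 5.81% to 7.07% and undisturbed ZT0 brains 2.26% to 3.06%. Of the 13 coding genes 11 had a positive sign (4469 of all 8705 genes did). The median log2 change of the 13 was 0.11 and turned to -0.23 without 12 h replicate 2. The transcript of mt:ATPase8, a subunit of the ATP synthase, was at 28.5, 26 and 32.2 CPM after 3 h and 33.4, 49.8 and 37.9 CPM after 12 h (log2 0.48, SE 0.177, edgeR adjusted p 0.675). The highest value of mt:ATPase8 was in 12 h replicate 2, and without it and 3 h replicate 2 its log2 change was 0.24.

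Outside the lists, fmt and CG5080 were among the abundant genes with the larger fitted changes. The transcript of fmt (listed as CG10289) was at 482, 362 and 420 CPM after 3 h and at 404, 1046 and 1457 CPM after 12 h. Thus 1 library after 12 h was at the level of the 3 h group and 2 were over 2-fold above it (log2 1.20, SE 0.442, edgeR adjusted p 0.675), and in undisturbed ZT0 brains 1 library of 3 was at 1169 CPM and the others at 389 and 396 CPM. CG5080 was at 59.7, 79.8 and 111 CPM after 3 h and 36.4, 24 and 42.7 CPM after 12 h, without overlap (log2 -1.26, SE 0.359, edgeR adjusted p 0.675).

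In the same fit, the 6 h libraries differed from both other durations. Between 6 h and 3 h 983 genes (11.3%) passed an adjusted p of 0.05 in edgeR, 261 higher and 722 lower after 6 h, and between 12 h and 6 h 1161 genes (13.3%) passed, 941 higher and 220 lower after 12 h. These contrasts share the 6 h libraries, which also had the highest difference between short and long transcripts, each gene relative to its mean over the libraries. With the correction for length, 261 genes passed between 6 h and 3 h and 30 between 12 h and 6 h, and with a 1.5-fold requirement 0 passed in either.

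The levels of Dgp-1, Ldh and CG7130 were also read in all 72 libraries from the deposited TPM. Dgp-1 was at 112 to 137 TPM after 12 h of shaking, 93.1 to 102 TPM after 6 h and 62.5 to 79.1 TPM after 3 h. The 63 libraries of flies that were not shaken are of several kinds. Some are undisturbed iso31 brains at ZT0 to ZT20. The others, labelled thermogenetic sleep deprivation, are GAL4 controls at 29 °C or TrpA1 flies at 21 or 29 °C. They come from the R21H11, R60F09, R65H02, hot cell and R85C10 lines, the last dissected at ZT12. Over these 63 libraries Dgp-1 ran from 43.7 to 97.9 TPM with a median of 66.6 TPM. All 3 libraries after 12 h lay above all of them, and the highest were undisturbed brains at ZT8 and ZT12 (97.9 TPM each). Ldh was at 44 to 68.2 TPM after 12 h, 46 to 71.6 TPM after 6 h and 13 to 25.9 TPM after 3 h. Of the 63 other libraries, 2 were above the lowest 12 h library, 1 with R65H02 GAL4 and TrpA1 kept at 21 °C (101 TPM) and 1 of undisturbed brains at ZT12 (55.4 TPM). CG7130 was at 14.8 to 20.9 TPM after 12 h, 15.8 to 19.7 TPM after 6 h and 3.78 to 8.42 TPM after 3 h, and 1 of the 63 others was above the lowest 12 h library (16.3 TPM, a hot cell GAL4 control at 29 °C). These genes were picked for their difference between the durations, and the levels are a description without a test.

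**Figure D5:**
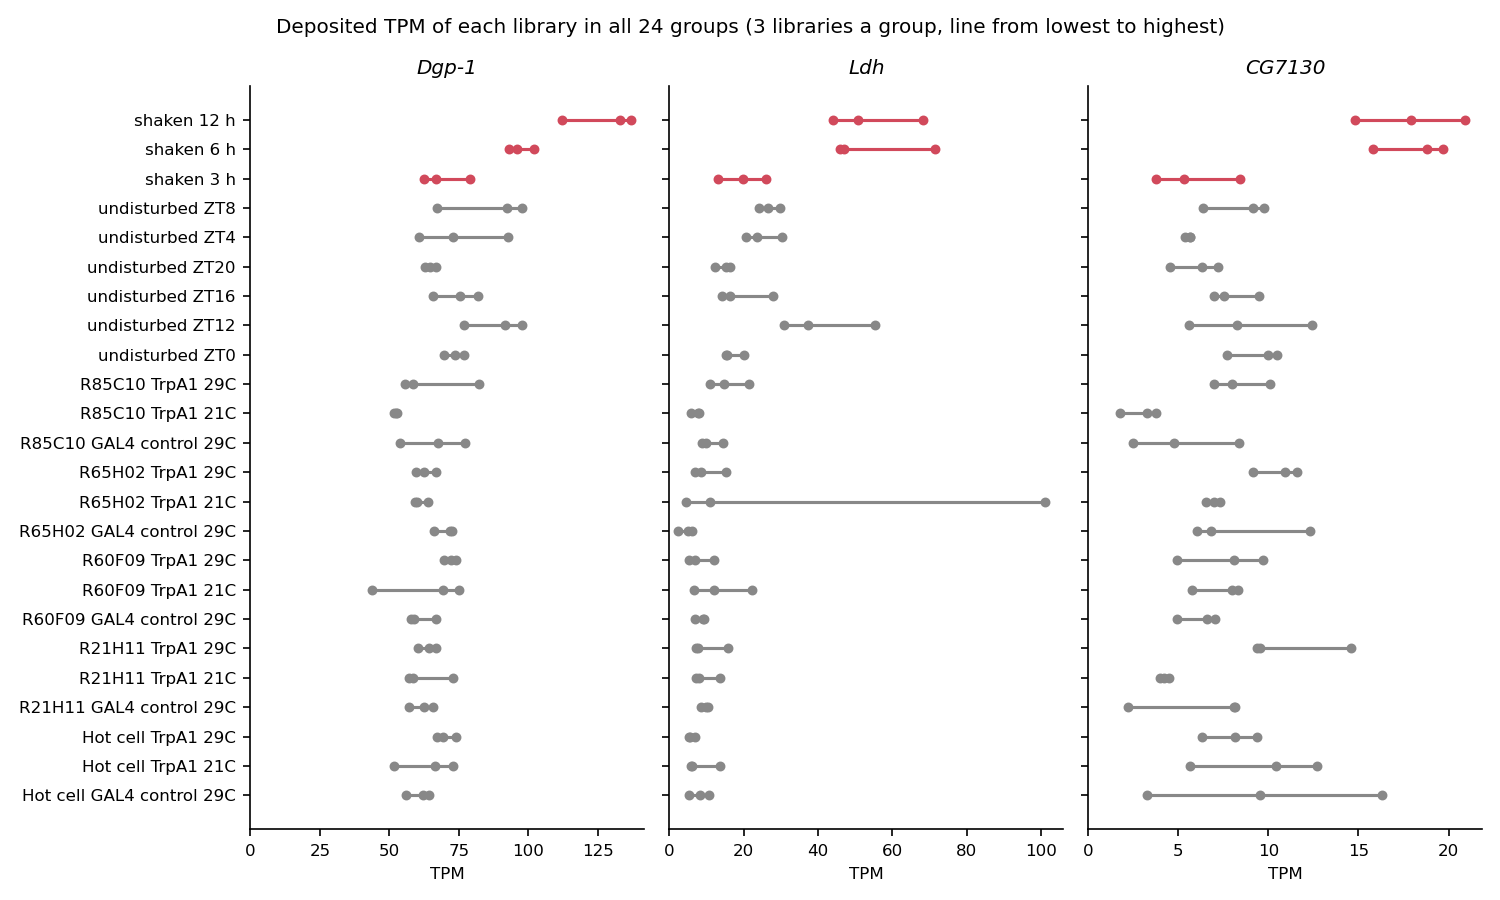
Deposited TPM of Dgp-1, Ldh and CG7130 in the 3 libraries (points, joined from lowest to highest) of each of the 24 groups of the series, with the shaken groups in red. The 12 h libraries of Dgp-1 (112 to 137 TPM) lie to the right of every library of the groups that were not shaken.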

How the data were processed

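The authors deposited estimated (expected) counts per gene, and TPM of the same genes, for 72 libraries. The submitters' processing notes name kallisto 0.46.1; genome build and annotation are not given in the sources used here, so no coordinates or sequences are printed. Of the deposited expected counts, zeros included, 89% lay within 0.02 of a whole number, and all were rounded. No columns were left unmapped (0). Of 13898 listed genes 12424 carried a current symbol in the reference tables (Release 6 annotation), 1401 were renamed through a synonym and 73 were not matched. Per the labels, library preparation used a NEBNext Ultra II RNA kit; the strand setting of the quantification is not given in the sources used here, so overlapping antisense genes may share counts. Members, lists and the rule for named genes were chosen with earlier results of these data known.

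TMM factors were computed over 12 libraries (9 shaken, 3 undisturbed ZT0). Genes were kept by filterByExpr on the 9 shaken libraries, which were fitted with edgeR 4.0.16 (robust quasi-likelihood, group only, R 4.3.3), with Benjamini-Hochberg adjustment across the 8705 genes. CPM carry the TMM factors. A gene was to be named if past the adjusted threshold of 0.05, with at least 1 log2 CPM on average and groups that did not overlap (up to 12 a direction), or else as one of the 8 with the smallest p. The 8 clock genes were named whether called or not; the remaining names were picked with their values in view. The fit was repeated with RLE scaling, DESeq2 1.42.0, no low-count filter, other sets of libraries, limma 3.58.1 on log2(TPM + 1), a 1.5-fold threshold, a replicate block, a lowess length offset (span 0.3) and leaving out libraries. No pair of replicates was a duplicate (smallest chi-square per gene 4.68). The main edgeR fit was run on simulated counts with known changes, and the outcome is not reported here. Exact permutation tests and tables used Python 3.11.15, scipy 1.17.1, pandas 2.3.3 and matplotlib 3.10.9. Counting error sets a floor on precision at low levels, and p-values measure the spread between pools of brains.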

Additional observations from a re-analysis of the deposited data

How the results depend on the processing

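The count of 0 genes between 12 h and 3 h stayed at 0 in 11 alternatives and was 3 with DESeq2. It was 1, Dgp-1 each time, with undisturbed ZT0 in the fit, on log2 TPM with limma and without 3 h and 12 h replicate 2. These libraries had the highest muscle marker sums of their groups, 503 and 95.3 TPM, and only the 3 h one stood apart. Leaving out both was a choice made after seeing the data. Leaving out 1 library gave 0 to 1 calls, the 1 being Dgp-1 without 12 h replicate 1 or 2. Genes at an unadjusted p under 0.05 numbered 608, against 349 on log2 TPM, 41 with a 1.5-fold requirement and 385 to 917 with 1 library left out. For the contrasts with 6 h, calls went from 983 to 0 with the 1.5-fold requirement, 261 with the length correction and 111 with that and a replicate block (6 h against 3 h, 478 to 785 with 1 library left out), and from 1161 to 0, 30 and 9 (12 h against 6 h, 628 to 1775). The replicate block alone left 0 calls between 12 h and 3 h. Residuals of 3 h and 12 h libraries with the same number correlated at 0.299, 0.019 and 0.194, and those with different numbers at -0.299 to 0.159. With the 6 h pairs included, same-number values ran from -0.39 to 0.30. As not every pair exceeded 0.1, the number was not taken to pair them.

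The mitochondrial share differed by 0.13 percentage points, and by -0.64 to 0.67 with 1 library left out. Of the log2 changes of named genes under the alternatives, 13 changed sign, in 6 genes: Clk (0.002 on log2 TPM, 0.39 without both libraries, and -0.53 to 0.26 with 1 left out), cyc (-0.012 without both, -0.02 to 0.13), vri (-0.006 to 0.15), Hsc70-3 (0.037 without both, -0.045 to 0.02), Hr38 (-0.031 to 0.42) and sr (-0.079 to 0.11). In 8 cases a gene came past the threshold (Dgp-1, mei-P26 and Ldh), and 982 cases kept their direction without a call. List medians moved by over the spread between libraries in 27 cases and by less in 381. Depth limits genes such as CG7130, with 9 to 42 counts per library.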
